A study of Homo sapiens with 8 samples.

Results

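The genes described here are 10 members of the epidermal growth factor (EGF) family and its inhibitors, taken by symbol from the 58051 genes counted in every library. They are the ligands *AREG*, *EREG*, *HBEGF*, *TGFA* and *NRG1*, the receptors *EGFR*, *ERBB2* and *ERBB3*, and the inhibitors *ERRFI1* and *LRIG1*. RNA-seq was run on A375, a human *BRAF*-mutant melanoma cell line. Each of 4 wild-type lines, WT1 to WT4, was kept for 12 h in DMEM with 10% fetal bovine serum (serum) or with none (serum-free), which gave 4 libraries per condition and 8 in all. The lines share the medium and the parental cells, so a line is not a separate donor. The paper describes single-cell colonies for its knockout lines, and its text does not say whether these wild-type lines are clones. The study looked for secreted factors behind the adherens junctions that form when serum is removed. Of the factors it tested, EGF among them, only IGF1 and, more weakly, insulin prevented these junctions. Of the 10 genes, 9 had enough counts to enter the test over 17671 genes, and *EREG* did not.

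EGF family ligands are made as membrane-bound precursors that metalloproteases release from the cell surface. Ligand binding lets receptors of the ERBB family pair, phosphorylate each other and pass the signal to the RAS-ERK and PI3K-AKT relays. *ERBB2* binds no known ligand and acts as a preferred partner, whereas *ERBB3* has weak kinase activity and docks PI3K. *ERRFI1* (MIG6) binds and blocks the receptor kinase, and *LRIG1* is a membrane protein that lowers receptor levels. In skin, keratinocytes use this family for growth and repair, and neuregulin signaling through ERBB3 is well known in melanocytes and melanoma.

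Each library held between 29759279 and 73341551 counts on genes. Reads that did not map uniquely made up 22.7% in the serum library of WT1 and 16.8% in that of WT2, against 5.73% to 10.1% in the other 6. The libraries labelled WT4 carry another name inside their deposited data, so the identity of that line rests on the labels. The tissue label was checked with 9 melanocyte lineage genes, of which *MITF* (40.1 CPM with serum, where CPM is the count scaled to library size by TMM), *S100B* (18.9) and *PAX3* (18.3) were counted in quantity. *SOX10*, a defining marker, was at 0 in every library. In the annotation 5.4% of its exon bases are shared with *POLR2F* on the opposite strand, and the part of the counting in this 0 was not tested. *PMEL*, *MLANA* and *DCT* lay near 1 CPM, and *TYR* and *TYRP1* had too few counts to test. The 9 genes summed to 72.3 to 87.4 CPM with serum and 70.4 to 91.0 CPM without. Of them 1 fell, *MITF* (log2 fold change -0.28, adjusted p = 0.0496, edgeR, and 0.197 with a correction for GC content). The part of these differences in the results below was not tested.

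Promoter windows were matched in RefSeq (GRCh38.p14) for 8 of the 10 genes, as 13 windows of 250 bases before and 50 after a transcription start. *NRG1* and *ERBB3* had no window and were not searched. 4 windows are shown, of 3 ligands and 1 receptor that changed without serum. Capitals mark letters found on either strand, which are the cAMP response element TGACGTCA, the AP-1 element TGANTCA, the TATA box TATAAA (or TTTATA) and the GC box GGGCGG (or CCGCCC).
AREG: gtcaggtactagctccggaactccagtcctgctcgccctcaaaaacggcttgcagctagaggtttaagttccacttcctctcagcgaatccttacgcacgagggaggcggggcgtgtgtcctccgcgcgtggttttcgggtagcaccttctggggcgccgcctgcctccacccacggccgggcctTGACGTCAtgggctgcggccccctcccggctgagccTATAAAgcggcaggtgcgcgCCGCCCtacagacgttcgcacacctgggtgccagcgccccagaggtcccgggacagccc
HBEGF: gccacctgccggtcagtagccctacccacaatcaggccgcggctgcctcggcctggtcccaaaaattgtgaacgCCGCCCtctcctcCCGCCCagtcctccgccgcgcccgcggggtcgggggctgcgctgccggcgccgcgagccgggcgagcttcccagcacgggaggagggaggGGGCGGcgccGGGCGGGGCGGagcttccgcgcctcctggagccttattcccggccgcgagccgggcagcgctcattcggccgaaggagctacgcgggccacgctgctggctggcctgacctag
TGFA: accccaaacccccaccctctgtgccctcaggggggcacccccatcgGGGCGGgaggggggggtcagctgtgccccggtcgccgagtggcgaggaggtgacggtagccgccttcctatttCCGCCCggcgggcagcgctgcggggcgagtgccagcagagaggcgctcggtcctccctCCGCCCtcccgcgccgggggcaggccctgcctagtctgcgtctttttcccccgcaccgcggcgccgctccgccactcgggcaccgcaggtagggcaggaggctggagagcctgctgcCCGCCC
ERBB2: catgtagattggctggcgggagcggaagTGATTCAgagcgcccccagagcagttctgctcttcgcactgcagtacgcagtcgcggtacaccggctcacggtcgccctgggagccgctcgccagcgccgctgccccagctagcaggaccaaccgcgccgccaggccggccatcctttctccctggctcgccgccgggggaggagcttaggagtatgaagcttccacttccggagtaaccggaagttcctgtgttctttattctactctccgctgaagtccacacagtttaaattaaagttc
The *AREG* window lies at chr4:74444886-74445185 on the plus strand, that of *HBEGF* at chr5:140346554-140346853 and that of *TGFA* at chr2:70553777-70554076, both on the minus strand, and that of *ERBB2* at chr17:39687844-39688143 on the plus strand. *AREG* alone among the 13 windows held the cAMP response element, 65 bases upstream of its start, an element found in 1.85% of 35116 promoter windows of this length. *AREG* also held a TATA box 29 bases upstream, and *EREG* held one at 32 bases. Matches were also in 1 of 2 *EGFR* windows and in 11.5% of all windows. *HBEGF* held 5 GC boxes, 2 of which overlap by a base, the *TGFA* window shown held 4, and the other held none. *AREG* and *ERRFI1* held 1 each. The *EGFR* windows held 3 and 0, and the *LRIG1* windows 0, 2, 3 and 3. *ERBB2* and *EREG* held none, against at least 1 in 45.0% of all windows. *ERBB2* held 1 AP-1 element 222 bases upstream, and 1 *EGFR* window and 1 *LRIG1* window held 2 each, against at least 1 in 7.71% of all windows. The *ERBB2* window overlaps *PGAP3* on the opposite strand, which ends at chr17:39688057, and this AP-1 element lies inside *PGAP3*. No other *ERBB2* window was searched. The FOXO element GTAAACA (3.42% of all windows) and the E-box CACGTG (7.26%) were in none of the 13. A match is a run of letters and not a shown binding site.

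Without serum 3 ligand transcripts fell, while 2 receptor transcripts and 1 inhibitor transcript rose. *AREG*, *HBEGF* and *TGFA* fell, and *ERBB2*, *ERBB3* and *LRIG1* rose (adjusted p under 0.05, edgeR quasi-likelihood test without a block). That is 3 of 9 tested members lower, against 14.0% of all genes tested, and 3 of 9 higher, against 11.1%. When the line was entered as a block, so that each line was compared with itself, *NRG1* and *ERRFI1* fell as well, which made 5 lower, against 22.4% of all genes, and 3 higher, against 23.2%. *EGFR* passed neither fit. The libraries of the conditions did not overlap for 5 of the 10 genes, 3 lower and 2 higher, against 15.0% and 12.6% of all genes tested. The median log2 fold change over all genes tested was 0.03. In bulk RNA, fewer cells with a transcript and less transcript per cell cannot be told apart.

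**Figure D1:**
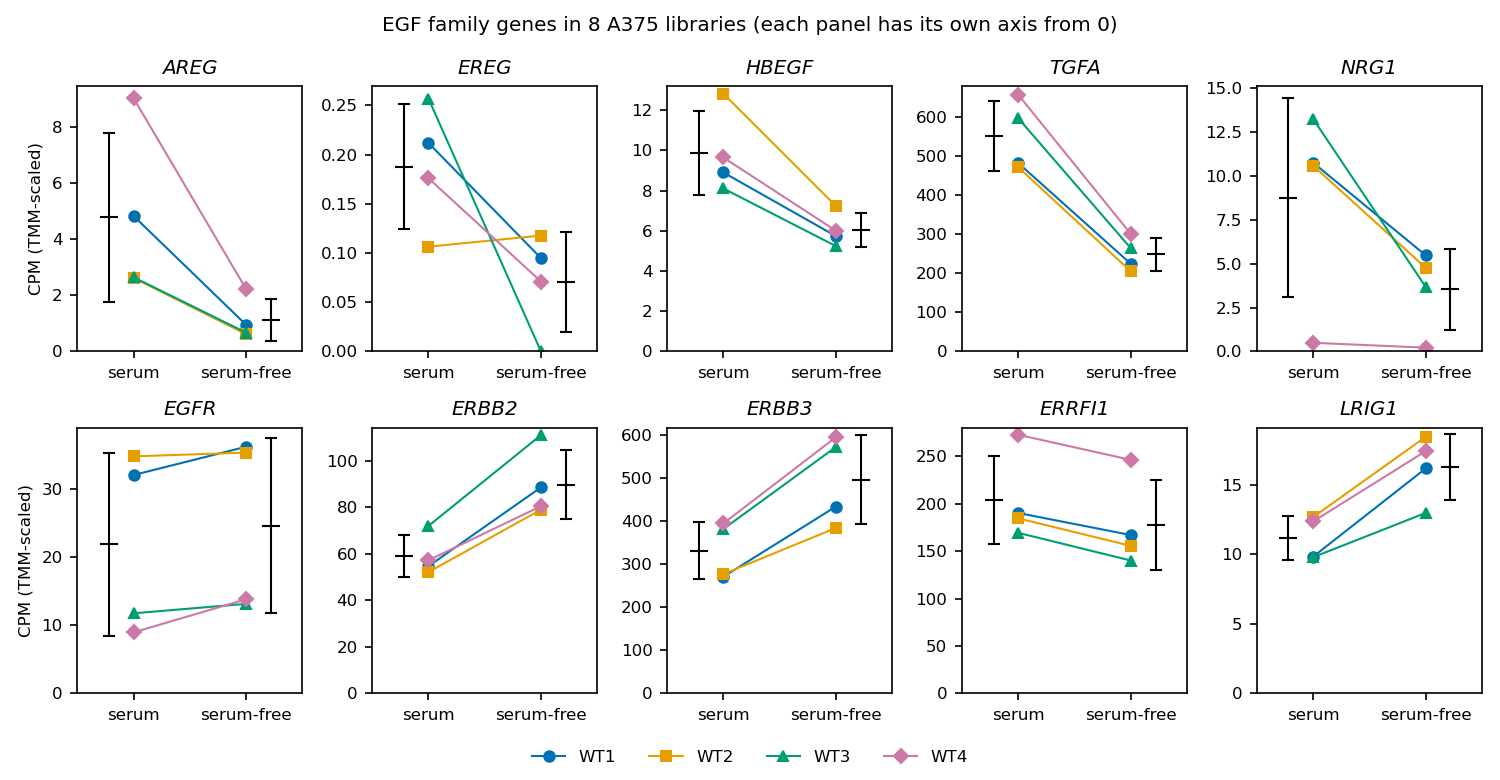
Normalized level (CPM, TMM-scaled, y axes from 0 and separate for each gene) of the 10 genes with serum and without. Colored points are the libraries of WT1 to WT4, lines join a line's libraries, and black bars give the mean and SD of 4 lines. *TGFA* fell from 471 to 657 CPM to 205 to 301 CPM, and the WT4 points lie near 0 for *NRG1*.

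*TGFA*, transforming growth factor alpha, is an EGFR ligand and was by far the most abundant ligand transcript. Its gene lies at chr2:70447284-70553826 (GRCh38). With serum it stood at 482, 471, 597 and 657 CPM in WT1 to WT4, and without serum at 224, 205, 264 and 301 CPM. The highest serum-free line lay well below the lowest serum line. The mean fell to 45.0% of its serum level, from 552 ± 90.1 to 248 ± 42.6 CPM (SD, n = 4). This was a log2 fold change of -1.15 with a standard error of 0.15 (adjusted p = 0.00159, edgeR). The 4 lines gave similar log2 ratios, between -1.20 and -1.10. *TGFA* stayed past the threshold when each library and each line was left out in turn (12 fits), with adjusted p from 8.6e-04 to 0.0230 (edgeR).

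*AREG* encodes amphiregulin, another EGFR ligand, and had the largest fall among the tested members. It lies at chr4:74445136-74455005, and its window with the cAMP response element is printed above. Its levels with serum were 4.82, 2.62, 2.64 and 9.01 CPM in WT1 to WT4, and without serum at 0.948, 0.615, 0.667 and 2.22 CPM. Every serum-free line lay below every serum line, although WT4 without serum (2.22) came near WT2 with serum (2.62). The counts behind these values were 113 to 256 with serum and 26 to 125 without. The log2 fold change was -2.08 (standard error 0.55, 95% interval -3.34 to -0.83, adjusted p = 0.0253, edgeR), and the mean was 23.3% of its serum level. The per-line log2 ratios ran from -2.35 in WT1 to -1.98 in WT3. Without the block the call was lost in 7 of these 12 fits, with an adjusted p of 0.142 at most (edgeR, without WT1). With the block the adjusted p was 4.3e-07 (edgeR).

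*HBEGF*, the heparin-binding ligand of EGFR and ERBB4, fell less. It lies at chr5:140332843-140346603. In serum it stood at 8.90, 12.8, 8.10 and 9.64 CPM in WT1 to WT4, and without serum at 5.73, 7.23, 5.24 and 6.001 CPM. The conditions did not overlap, and WT2 was the highest line in each. The serum-free mean was 61.3% of the serum mean, a log2 fold change of -0.70 (standard error 0.17) with an adjusted p of 0.0148 (edgeR). The call was lost in 1 of the 12 fits, that without WT1 (adjusted p = 0.0726, edgeR).

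*NRG1* encodes neuregulin 1, a ligand of ERBB3 and ERBB4, and differed more between lines than between conditions. With serum it stood at 10.8, 10.6, 13.2 and 0.493 CPM in WT1 to WT4, and without serum at 5.47, 4.76, 3.67 and 0.213 CPM. WT1 to WT3 did not overlap between conditions, whereas the WT4 libraries held only 14 counts with serum and 12 without. The log2 fold change without the block was -1.32, with a 95% interval of -3.68 to 1.04 (adjusted p = 0.382, edgeR). With the line as a block it was -1.31 (adjusted p = 1.1e-05, edgeR). Without WT4 it was also past the threshold in the fit without a block (adjusted p = 9.97e-04, edgeR). The log2 ratios were -0.97, -1.15, -1.85 and -1.21 in WT1 to WT4. There was 1 library per line and condition, so whether the lines differed in their response was not tested.

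*EREG*, which encodes the EGFR and ERBB4 ligand epiregulin, lies beside *AREG* at chr4:74365145-74388749, and had few counts. Its libraries held 8, 7, 11 and 5 counts with serum and 4, 9, 0 and 4 without, in the order WT1 to WT4. The 0 of WT3 allows up to 0.077 CPM (3 counts, counting error only), and its serum library stood at 0.257 CPM. In WT2 the value was slightly higher without serum, and in the others lower. Of the genes beside it, *EPGN* (epigen, an EGFR ligand) had at most 1 count in any library. *BTC* (betacellulin, an EGFR and ERBB4 ligand) had 14 to 27 counts with serum and 34 to 91 without. *BTC* had a log2 fold change of 1.11 (adjusted p = 0.0789, edgeR), which passed the threshold with the line as a block (adjusted p = 0.0049, edgeR).

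**Figure D2:**
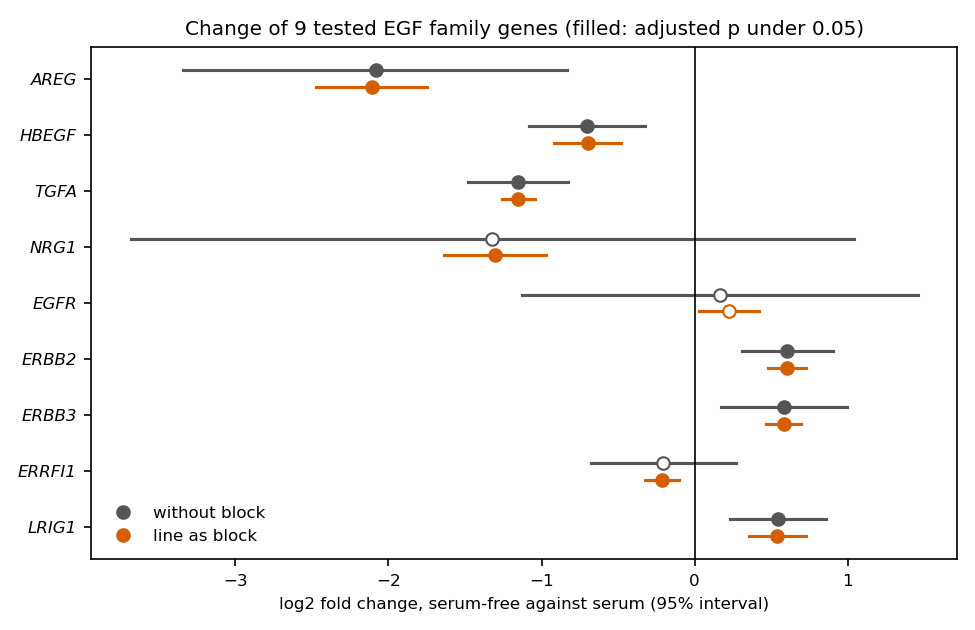
Log2 fold change, serum-free against serum (x axis), of the 9 tested genes, with the 95% interval as a line, in the fit without a block (gray) and with the line as a block (orange). Filled points passed an adjusted p of 0.05. The *NRG1* interval runs from -3.68 to 1.04 without the block and from -1.64 to -0.97 with it.

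Among the receptors, *ERBB3* and *ERBB2* rose by similar amounts. *ERBB3* lies at chr12:56080108-56103505. With serum the libraries gave 271, 277, 382 and 395 CPM in WT1 to WT4, and without serum at 434, 384, 572 and 595 CPM. Each line rose, but the conditions overlapped, since WT2 without serum (384) lay below WT4 with serum (395). The mean rose to 149.9% of its serum level, a log2 fold change of 0.58 (standard error 0.18) with an adjusted p of 0.0441 (edgeR). This call held in only 2 of the 12 leave-out fits, and with the block the adjusted p was 1.2e-06 (edgeR).

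*ERBB2* lies at chr17:39688094-39728658. Its levels with serum were 54.7, 52.2, 71.99 and 57.2 CPM in WT1 to WT4, and without serum at 88.6, 79.0, 111 and 80.5 CPM. The conditions did not overlap, and WT3 was the highest line in each. On the log2 scale the rise was 0.60 (standard error 0.13) with an adjusted p of 0.0102 (edgeR). The call was lost in 1 of the 12 fits, that without WT1 (adjusted p = 0.0761, edgeR). When fold changes were corrected for GC content, *ERBB2* moved to 0.43 and *ERBB3* to 0.49, each with an adjusted p of 0.0590 (edgeR). With the correction and the block together both rises were past the threshold. *ERBB2* has the highest GC content of the 10 genes, 57.5% of its longest transcript, and *ERBB3* has 52.6%. Of the merged *ERBB2* exons, 6.9% are shared with genes on the opposite strand, *MIEN1* (log2 fold change 0.01) and *PGAP3* (0.53, adjusted p = 0.0165, edgeR), and whether strand was used in counting is not stated.

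*EGFR*, the receptor of *TGFA*, *AREG* and *HBEGF*, did not pass the test of serum-free against serum in any fit. It lies at chr7:55019017-55211628. In serum it stood at 32.1, 34.8, 11.8 and 8.97 CPM in WT1 to WT4, and without serum at 36.2, 35.4, 13.2 and 13.8 CPM. The conditions overlapped, and WT1 and WT2 lay above WT3 and WT4 in each. The log2 fold change was 0.17 with a 95% interval of -1.13 to 1.46 (adjusted p = 0.860, edgeR). With the block it was 0.22, with an interval of 0.03 to 0.42 (adjusted p = 0.0560, edgeR). The per-line log2 ratios were 0.18, 0.02, 0.16 and 0.62, with WT4 the highest.

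The inhibitors did not move together. *LRIG1*, at chr3:66378797-66501121, stood at 9.82, 12.7, 9.78 and 12.4 CPM in WT1 to WT4 with serum and at 16.2, 18.4, 13.0 and 17.4 CPM without. The conditions came close but did not overlap, with 12.7 as the highest serum value and 13.0 as the lowest serum-free value. The rise was 0.54 on the log2 scale (standard error 0.14) with an adjusted p of 0.0200 (edgeR). The call held in 5 of the 12 leave-out fits, and with the block the adjusted p was 1.6e-04 (edgeR). In the annotation 37.9% of the *LRIG1* exon bases are shared with *SLC25A26*, a mitochondrial carrier gene on the opposite strand, which had a log2 fold change of 0.24 (adjusted p = 0.0645, edgeR). With the block *SLC25A26* passed the threshold as well (adjusted p = 0.0217, edgeR). Within the shared stretch, reads of these genes cannot be told apart without strand.

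*ERRFI1*, at chr1:8011727-8026309, is known to be induced by EGFR signaling as well as to inhibit it. It stood at 190, 185, 169 and 273 CPM in WT1 to WT4 with serum and at 167, 156, 140 and 246 CPM without. Each line fell by a small amount and the conditions overlapped, since WT4 was far above the others in each. Its log2 fold change was -0.20 (standard error 0.21, 95% interval -0.68 to 0.27, adjusted p = 0.512, edgeR). With the line as a block it was -0.21, and the fall passed the threshold (adjusted p = 0.0040, edgeR). It also passed in the fit without a block once WT4 was left out (adjusted p = 0.0451, edgeR).

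The 4 lines differed in every tested member. A test of the line terms, with the condition held in the model, passed an adjusted p of 0.05 for all 9, against 22.9% of all genes tested. By the F statistic the largest differences were those of *NRG1* (F = 94.0, adjusted p = 2.0e-07, edgeR) and *EGFR* (F = 93.8, adjusted p = 2.1e-07, edgeR). By the ratio of the highest to the lowest line over the conditions, *AREG* (3.48) lay above *EGFR* (3.08). The mean of WT1 to WT3 for *NRG1* was 23.4 times the WT4 level with serum and 21.8 times without. For *EGFR* the mean of WT1 and WT2 was 3.23 times that of WT3 and WT4 with serum and 2.65 times without. WT4, the line with little *NRG1*, was highest in *AREG*, at 2.68 times the mean of the others with serum and 2.99 times without. WT4 was also the highest in *ERRFI1*, at 1.504 and 1.60 times the others. These ratios were chosen after the levels were seen, and WT4 against the others was not tested. The test over all 4 lines gave an adjusted p of 6.2e-05 for *AREG* and 1.2e-05 for *ERRFI1* (edgeR).

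The other members differed less between lines. *TGFA* (adjusted p = 2.1e-04, edgeR) and *ERBB3* (4.9e-05) were both highest in WT4 and lowest in WT2 over the conditions. Their highest line was 1.42 and 1.497 times the lowest. *ERBB2* was highest in WT3 (adjusted p = 0.00183, edgeR), a difference that was lost without WT3 (adjusted p = 0.629, edgeR) and without its serum-free library. *HBEGF* (adjusted p = 0.0349, edgeR) and *LRIG1* (0.0490) were nearest to the threshold, and each kept the call in 4 of the 12 fits. *LRIG1* also lost it with RLE scaling (adjusted p = 0.0524, edgeR). The *NRG1* difference was lost without WT4 (adjusted p = 0.908, edgeR), while those of *AREG*, *TGFA*, *EGFR*, *ERBB3* and *ERRFI1* passed in all 12. Each line has 2 libraries, so these tests compare only these 4 lines.

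**Figure D3:**
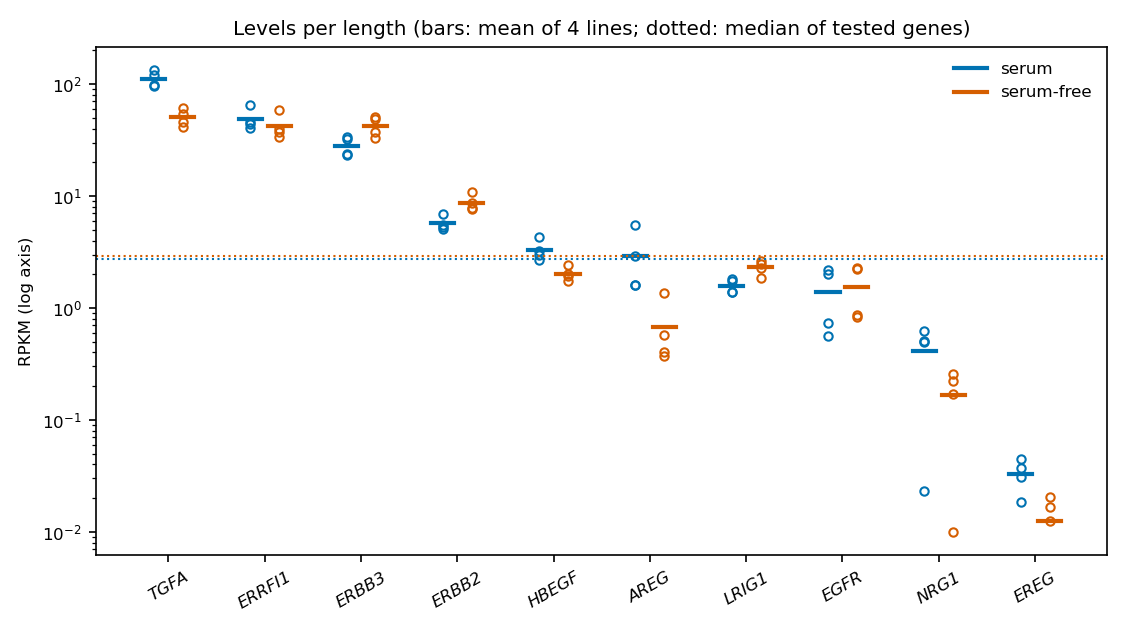
Level per length (RPKM, log axis) of the 10 genes in order of their serum mean, with serum (blue) and without (orange). Points are the 4 lines, bars the mean, and dotted lines the median of tested genes, 2.74 with serum and 2.93 without. The *EREG* library at 0 (WT3, serum-free) is not drawn, and *TGFA*, *ERRFI1* and *ERBB3* converge without serum.

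Compared between genes per length, as RPKM (counts per kilobase of merged exons, scaled as CPM), the order with serum was *TGFA*, *ERRFI1*, *ERBB3*, *ERBB2*, *HBEGF*, *AREG*, *LRIG1*, *EGFR*, *NRG1* and *EREG*. *TGFA* stood at 112 ± 18.3 RPKM with serum (SD, n = 4) and was 327th among 17425 tested genes with a known length. *ERRFI1* stood at 48.9 ± 11.1, *ERBB3* at 28.3 ± 5.65 and *ERBB2* at 5.72 ± 0.86 RPKM. The ranges of these 4 did not overlap with their neighbours. *HBEGF* (3.30 RPKM) and *AREG* (2.91) lay just above the median of tested genes, which was 2.74. *AREG* was above it through WT1 and WT4, and without WT4 its mean was 2.04 RPKM, below the median. *LRIG1* (1.58), *EGFR* (1.37), *NRG1* (0.410) and *EREG* (0.0329) lay below it, and from *HBEGF* down each range overlapped with the next. *TGFA* made up 93.7% to 96.1% of the summed ligand RPKM of the 5 ligands in the serum libraries.

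Without serum *TGFA* (50.5 ± 8.66 RPKM), *ERRFI1* (42.4 ± 11.3) and *ERBB3* (42.4 ± 8.81) overlapped. The ratio of *TGFA* to *ERBB3* RPKM was 4.24, 4.05, 3.72 and 3.96 with serum in WT1 to WT4, and 1.23, 1.27, 1.10 and 1.20 without. Taken on the longest transcript in place of merged exons, this ratio was 0.702 to 0.812 without serum, which put *ERBB3* above *TGFA*, and 2.38 to 2.71 with serum. The summed ligand level went from 102 to 142 RPKM with serum to 44.7 to 64.5 RPKM without, and the summed receptor level from 30.4 to 40.3 RPKM to 42.7 to 60.4 RPKM. *ERBB3* made up 76.0% to 85.4% of the 3 receptors over the 8 libraries. With serum *EGFR* made up 6.62% and 7.08% of them in WT1 and WT2, and 1.83% and 1.41% in WT3 and WT4. The fourth receptor gene, *ERBB4*, had too few counts to test.

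**Figure D4:**
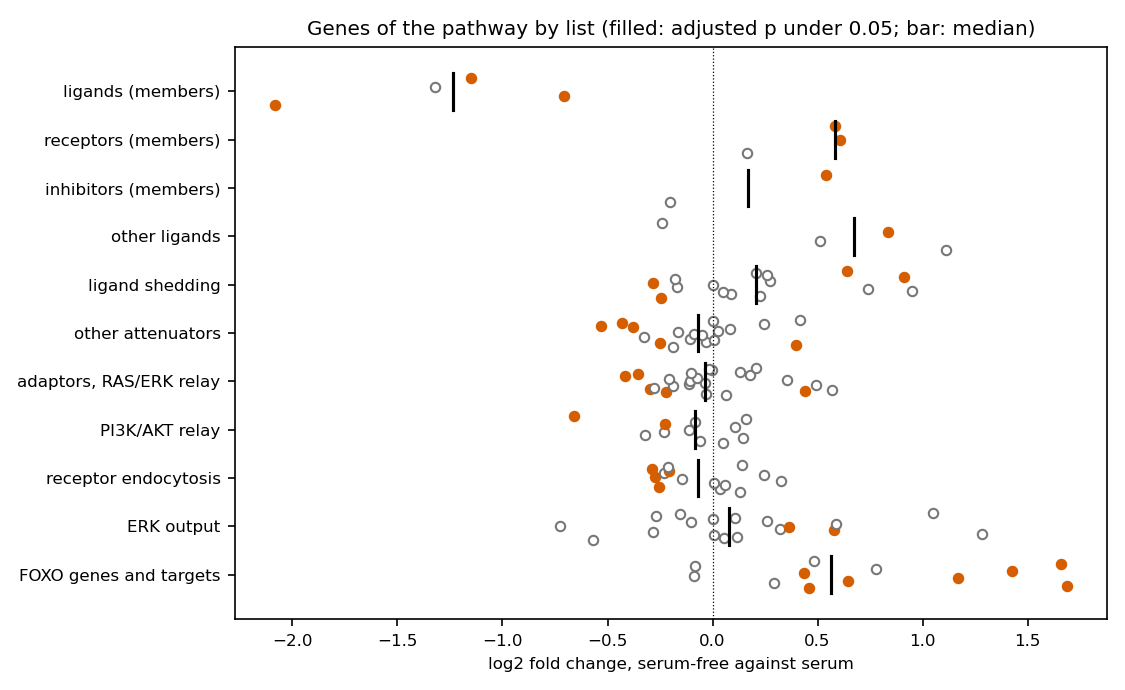
Log2 fold change, serum-free against serum (x axis), of each tested gene of the family and of 8 lists of other pathway genes. Each point is a gene, filled where its adjusted p was under 0.05 in the fit without a block, and the black bar is the median of the list. The medians are 0.67 for the other ligands (4 genes), 0.56 for the FOXO list and 0.21 for ligand shedding, and lie between -0.08 and 0.08 for the other 5 lists.

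The rest of the pathway was followed in 8 lists, whose counts stand against 11.1% of all genes tested that rose and 14.0% that fell, or 23.2% and 22.4% with the line as a block. Of each list, the genes with the 2 smallest p were named by rule, and others past the threshold after their values were seen. Of 7 other family genes, the remaining ligands and *ERBB4*, 4 were tested, and *NRG2*, a neuregulin, rose from 5.40 to 9.58 CPM (log2 fold change 0.83, adjusted p = 0.0326, edgeR). *EGF* itself went from 1.495 ± 0.54 to 2.11 ± 1.31 CPM (adjusted p = 0.399, edgeR), and *NRG3* had no counts. Of 15 genes of ligand shedding and release, 2 rose and 2 fell, with a median log2 fold change of 0.21. *RHBDF1* (iRhom1, which helps ADAM17 mature) rose by 0.91 (adjusted p = 0.00218, edgeR) and *TIMP3*, an inhibitor of ADAM17, by 0.64 (adjusted p = 0.0242). *ADAM10* (-0.24) and the protease *BACE2* (-0.28, adjusted p = 0.0149, edgeR) fell. *ADAM17*, the main sheddase of *TGFA* and *AREG*, had a log2 fold change of 0.05 (adjusted p = 0.718, edgeR). With the block 6 of these genes rose and 4 fell.

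Among 18 tested attenuators of the receptors other than *ERRFI1* and *LRIG1*, 1 rose and 4 fell, with a median of -0.07. The phosphatase gene *UBASH3B* (-0.43, adjusted p = 0.00323, edgeR), *SOCS4* (-0.38, adjusted p = 0.0107), *SOCS5* (-0.53) and *CD2AP* (-0.25) fell. *CBLB*, a ubiquitin ligase of the receptors, rose (0.40, adjusted p = 0.0410, edgeR). With the block 3 attenuators rose and 7 fell. Of 14 endocytosis genes 4 fell and none rose, with a median of -0.07. These were *EPS15L1* (-0.27, adjusted p = 0.0139, edgeR), *RAB7A* (-0.21), *STAM* (-0.29) and the clathrin heavy chain gene *CLTC* (-0.26). With the block 6 endocytosis genes fell and 2 rose.

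Of 23 adaptor and RAS-ERK relay genes, 1 rose and 4 fell, and the median was -0.03. The adaptor *GRB2* fell (-0.30, adjusted p = 0.00475, edgeR), as did *PTPN11* (-0.36), *CRKL* (-0.22) and *NRAS* (-0.42), while the docking protein gene *GAB1* rose (0.44, adjusted p = 0.0137, edgeR). With the block 5 of the 23 rose and 6 fell. Among the PI3K-AKT relay genes *PIK3CB*, which encodes a catalytic subunit of PI3K, fell (-0.23, adjusted p = 0.0438, edgeR). Of 18 genes known as ERK output, 2 rose and none fell, with a median of 0.08. They were the transcription factors *ETV1* (0.58, adjusted p = 0.0269, edgeR) and *ETV5* (0.37, adjusted p = 0.0287). With the block 7 rose and 5 fell. With the GC correction *ADAM10*, *CD2AP*, *SOCS4*, *PIK3CB* and *STAM* no longer passed (adjusted p 0.0834 to 0.569, edgeR), and their falls rest on the uncorrected values.

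*ERBB3* is known as a gene that FOXO factors raise when AKT is inhibited, and a list of 12 FOXO genes, receptor genes and FOXO targets was therefore set beside it. Of the 12, 7 rose, against 11.1% of all genes, and none fell, with a median log2 fold change of 0.56. *FBXO32*, a ubiquitin ligase gene, rose from 12.8 ± 2.88 to 41.3 ± 5.82 CPM (log2 fold change 1.69, adjusted p = 8.3e-04, edgeR). *KLHL24* rose from 15.3 ± 1.67 to 41.1 ± 8.34 CPM (1.42, adjusted p = 8.9e-04). *FOXO3* (0.64), *FOXO4* (1.17), *INSR* (0.44), *CITED2* (0.46) and *SESN3* (1.66) rose as well. With the block 10 rose, against 23.2% of all genes, and none fell. This list was chosen with earlier results of these data known, so its count is no independent evidence.

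Of the markers of other cell types, the keratinocyte keratin genes *KRT10* (41.8 CPM with serum) and *KRT14* (17.2 CPM) were counted at levels like those of *MITF* and *PAX3*. *KRT5*, also tested, stood at only 0.326 CPM with serum and 0.558 CPM without. Of 3 tested keratinocyte genes *KRT10* fell (-0.31, adjusted p = 0.0253, edgeR), *KRT1* was at 0, and *TP63* and *DSG3* had too few counts to test. The 6 genes summed to 54.6 to 64.6 CPM with serum and 43.6 to 56.2 CPM without. Of 4 tested fibroblast genes *PDGFRA* rose from 0.708 to 2.39 CPM (log2 fold change 1.77, adjusted p = 0.00767, edgeR), and the 5 genes summed to 6.28 to 10.2 and 7.91 to 10.3 CPM. With the line as a block *DCN* rose as well (log2 fold change 0.90, adjusted p = 0.0125, edgeR). The leukocyte genes summed to at most 0.852 CPM and the endothelial genes to at most 1.87 CPM, and none of those tested passed. The part of these markers in the results was not tested.

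For each member past the threshold, the 3 protein-coding genes most like it were taken by Pearson's r of log2 CPM over the 8 libraries, among 11523 genes averaging 100 or more counts. The libraries share lines and differ in depth, so these values are descriptions. *TGFA* was most like *MLX* (r = 0.992), *CIAO1* (0.985) and *TMEM104* (0.984). *AREG* was most like *KATNA1* (0.982), *TOR3A* (0.968) and *NOL6* (0.963), and *HBEGF* was most like *SMG8* (0.978), *GYG1* (0.9753) and *TEX2* (0.966). *ERBB3* was most like *PKDCC* (r = 0.995), *PTCH1* (0.994), the Hedgehog receptor gene, and *TBC1D16* (0.991). *ERBB2* was most like *SYNGR1* (0.994), *WNK4* (0.988) and *LRRC4B* (0.986), and *LRIG1* was most like *CRMP1* (0.996), *GABARAPL1* (0.984) and *MYADM* (0.982). *PKDCC*, *TBC1D16*, *CRMP1*, *KATNA1* and *SMG8* did not themselves pass the serum-free test (adjusted p 0.0680 to 0.157, edgeR).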

How the data were processed

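RNA was measured in 8 libraries of rRNA-depleted total RNA, with line and condition taken from the labels. The authors deposited raw HTSeq counts per gene on GRCh38, not normalized. The submitters' processing notes name cutadapt, TopHat2 2.0.11 and HTSeq without their roles. The paper's methods name hg19 and Cufflinks for values not used here. The annotation release and strand setting are not given in the sources used here. Symbols matched 55604 of 58051 identifiers. Positions and promoters are from RefSeq (GRCh38.p14). Exon lengths, overlaps and GC content came from GENCODE lifted to GRCh37, known for 17425 of 17671 tested genes, so RPKM values rest on another build.

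Counts were filtered (filterByExpr), scaled by TMM and tested in edgeR 4.0.16 (R 4.3.3) with the robust quasi-likelihood test and Benjamini-Hochberg adjustment over all 17671 genes, at a threshold of 0.05. CPM and RPKM used TMM-scaled library sizes, and correlations used log2 CPM with a prior count of 2. The fit had no block. The line was the block in an alternative, since same-numbered libraries come from the same line. Their deviations from the condition means correlated at 0.403 to 0.604, against at most 0.126 between lines. All libraries differed beyond sampling noise. Nothing says that each library is a separate culture, so p-values measure only the spread between these samples. The alternatives were RLE and upper-quartile scaling, no filter, at least 10 counts in every library, DESeq2 1.42.0, limma voom (3.58.1), a GC correction, and leaving out each library and line. The fits were also run on simulated counts in which no gene differed by both line and condition, and the outcome is not given.

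The genes named are all members, the 2 smallest p past the threshold in each list, the 3 genes most like each called member, neighbours of *AREG* and genes overlapping a member. The members and lists were chosen with earlier results of these data known. A gene that this rule selects is not reported here.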

Additional observations from a re-analysis of the deposited data

How the results depend on the processing

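With the line as a replicate block, 8067 genes passed, against 4434 without it. 8155 passed with the block and a GC correction, and 7618 with the block in DESeq2. The block gave 5 lower members in all 3 of these fits, against 3 lower and 3 higher without it, by adding *NRG1* and *ERRFI1*. No other call of a member differed from the fit without block or correction. The GC correction without the block left 1 higher member, *LRIG1*, and under this correction the block also restored *ERBB2* and *ERBB3*. With no filter on low counts *AREG* (adjusted p = 0.0854, edgeR) and *ERBB3* (0.124) no longer passed.

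Leaving out a library or a line gave 1589 (without WT1) to 6128 (without the serum library of WT4) genes, 1 to 5 lower members and 0 to 3 higher members. Without WT1 the only member that passed was *TGFA*, and without WT4 the lower ones were 5. The line test gave 2364 to 7580 genes, against 4055, the extremes being without the serum-free library of WT2 and of WT4. *EGFR* ranged from -0.090 to 0.48 in log2 fold change and was below 0 without the serum library of WT3 (-0.043) or WT4, or the serum-free library of WT1 or WT2. The cause was not tested. Of 198 values of the members' log2 fold changes under alternatives, 156 kept their direction and side of the threshold. Precision is lowest for *EREG*, with at most 11 counts in a library, and for *NRG1* in WT4, with 14 and 12.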
